A study of Mus musculus with 14 samples.

Results

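The expression of 10 hypoxia-inducible genes that lie outside glycolysis was followed in mouse embryonic fibroblasts (MEFs) with and without the lysine acetyltransferase Tip60, grown throughout at 3% O2. The genes are Vegfa, Adm, Egln3, Bnip3, Car9, P4ha1, P4ha2, Kdm3a, Ndrg1 and Ankrd37. They were taken by name as established targets of the hypoxia-inducible factors (HIFs), with no threshold on their values, though earlier results of these data were known when they were chosen. All 10 were found by symbol among 25275 identifiers with a symbol, of 26270 gene identifiers in all, and all 10 were among the 14327 genes with enough counts to be tested.

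RNA-seq libraries with poly(A) selection were made from 14 MEF cultures of E13.5 embryos. Deletion of the Tip60 gene (Kat5) had been induced with 250 nM 4-hydroxytamoxifen (4-OHT), a ligand often used to activate an inducible Cre recombinase, and RNA was taken at 3 or 5 days. Day 3 had 3 libraries of control cells (Tip60+/+) and 3 of knockout cells (KO, Tip60-/-), and day 5 had 4 of each genotype. The treatment is worded alike for every sample, so whether control cells received the drug is not given separately, and the Cre line is not given in the sources used here. Every culture was at 3% O2, with no group at another oxygen level, so the values below compare genotypes and days and do not measure a response to oxygen.

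HIFs are transcription factors made of an oxygen-regulated alpha subunit and a stable beta subunit. When oxygen is plentiful, prolyl hydroxylases mark the alpha subunit for destruction through the von Hippel-Lindau protein. When it is scarce the alpha subunit persists, enters the nucleus and binds short DNA elements near its target genes, many of which serve blood supply, mitochondrial turnover, pH control, collagen maturation and chromatin demethylation rather than sugar breakdown.

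Total counts per library ran from 2187168 to 39203154, and 1 KO library of day 3 (replicate 3) was the shallowest. Kat5, the targeted gene, lay between 29.8 and 32.3 CPM (counts relative to the library's total, scaled for library composition) in the 7 control libraries and between 17.3 and 21.1 CPM in the 7 KO libraries. Gene-level counts do not separate incomplete deletion from reads on exons that were not deleted. The prefix of the embryo identifier, read here as the litter, is never shared between genotypes, so genotype and litter cannot be told apart. Litter labels 1 and 2 occur in both genotypes, under different prefixes, and whether they are numbered within each genotype is not given. Males gave 5 of 7 KO and 1 of 7 control libraries, and replicates 1 and 2 of the day 3 controls have 1 embryo identifier. All 10 fibroblast markers examined were detected in every group. They summed to 17231 to 20917 CPM in day 3 control and 28187 to 28802 CPM in day 3 KO libraries, with 4 called higher and 0 lower in KO cells, and to 21961 to 26408 CPM in day 5 control and 17262 to 20465 CPM in day 5 KO libraries, with 3 called higher and 4 lower. Endothelial markers were low and did not overlap between genotypes, at 13.2 to 18.7 and 23.0 to 23.7 CPM in day 3 control and KO libraries and 7.82 to 15.9 and 19.4 to 26.4 CPM at day 5, with 2 of 6 tested called higher at each day and Tie1 at 0 in all groups but day 5 KO. Blood markers summed to 0.805 CPM or less. Epithelial markers summed to 132 to 210 CPM in day 3 control, 38.8 to 87.4 CPM in day 3 KO, 40.6 to 65.9 CPM in day 5 control and 31.9 to 47.0 CPM in day 5 KO libraries. Of 5 tested, 1 was called lower and 1 higher in KO cells at day 3, and 1 lower and 2 higher at day 5. Macrophage markers summed to 86.5 to 119 CPM in day 3 control and 56.1 to 79.0 CPM in day 3 KO libraries, with 4 of 7 tested called lower. At day 5 they summed to 84.9 to 117 and 73.0 to 128 CPM, with 2 called lower and 1 higher. Neural and glial markers summed to 206 to 304 CPM in day 3 control and 337 to 453 CPM in day 3 KO libraries, with 1 of 7 tested called higher and 1 lower. At day 5 they summed to 329 to 529 and 414 to 527 CPM, with 2 called lower and 0 higher. Muscle markers summed to 59.9 to 109 and 104 to 196 CPM at day 3 and 87.9 to 124 and 56.4 to 102 CPM at day 5, in control and KO libraries, with 3 and 1 of 5 tested called higher. The 12 cartilage markers summed to 86.1 to 179 CPM in day 3 controls and 2347 to 2752 CPM in day 3 KO cells, with 9 of 10 tested called higher, and Matn1 and Chad were at 0 in the controls. At day 5 they summed to 191 to 368 CPM in control replicates 1 to 3, 2624 CPM in control replicate 4 (embryo 219-e6-I, the 1 male control) and 1865 to 3863 CPM in KO cells, with 7 of 10 tested called higher. Beside these counts, 26.2% of all tested genes were called lower and 24.6% higher in KO cells at day 3, and 26.2% and 26.3% at day 5. The marker sums themselves were not tested. The part of any of these markers' cell types in the results below was not tested. In such bulk RNA, fewer cells of a type and less RNA per cell cannot be told apart.

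HIF-binding elements have a core of ACGTG or GCGTG. RefSeq promoter windows (GRCm38.p6, 250 bases before to 50 bases after a start site) were matched for 9 of the 10 genes, with 12 start sites in all. Each of the 9 genes had a core on either strand at 1 or more start sites, and 9 of the 12 start sites had one, against 43.8% of 32851 promoter windows of the same length. ACGTG alone was in 19.6% of those windows and GCGTG alone in 32.4%. These matches describe letters and do not show binding. Stretches around cores are printed to show where the shared core lies in the genes described below, 5′ to 3′ on the gene's strand, with each core, its reverse complement (CACGT or CACGC) or the overlapping palindrome CACGTG in capitals.
Bnip3 (chr7:138909522-138909638, minus strand): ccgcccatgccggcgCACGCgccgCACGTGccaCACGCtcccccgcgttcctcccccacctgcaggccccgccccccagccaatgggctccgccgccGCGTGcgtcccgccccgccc
Adm (chr7:110627552-110627622, plus strand): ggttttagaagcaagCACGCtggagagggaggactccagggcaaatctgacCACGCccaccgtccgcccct
P4ha2 (chr11:54100802-54100874, plus strand): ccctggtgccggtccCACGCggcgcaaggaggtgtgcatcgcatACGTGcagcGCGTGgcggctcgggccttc
Egln3 (chr12:54204084-54204118, minus strand): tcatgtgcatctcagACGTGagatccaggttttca
Car9 (chr4:43506998-43507022, plus strand): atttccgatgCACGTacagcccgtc
P4ha1 (chr10:59323270-59323294, plus strand): tgacagagcgCACGTagcgagggct
Kdm3a (chr6:71632930-71632954, minus strand): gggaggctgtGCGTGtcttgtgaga
Ankrd37 (chr8:45999851-45999866, minus strand): gtgtttgggtACGTGa
For P4ha1 and Ankrd37 the core nearest the start site of the matched RefSeq window is shown, of 3 and 4. The stretches of P4ha1, Kdm3a and Ankrd37 lie inside the gene positions given below. Bnip3 had the most core matches of any start site here, 2 ACGTG and 3 GCGTG. Both ACGTG matches are 1 palindrome read on either strand, and with it counted once Bnip3 would not lead. The palindrome is in 7.15% of all windows. Adm had 2 GCGTG and no ACGTG, and Kdm3a had 1 GCGTG and no ACGTG. Vegfa had none at its outer start site and 1 of each at an internal one.

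In KO cells most of the 10 transcripts were lower than in control cells, and in both genotypes nearly all were lower at day 5 than at day 3. At day 3, edgeR called 6 of 10 lower in KO cells (Vegfa, Bnip3, Ankrd37, P4ha1, P4ha2 and Kdm3a), against 26.2% of all tested genes, and 1 higher (Adm), against 24.6%. At day 5 it called 6 of 10 lower (Vegfa, Egln3, Bnip3, Ankrd37, P4ha1 and Kdm3a), again against 26.2% of tested genes, and 0 higher, against 26.3%. No member was higher at day 5 at an unadjusted p below 0.05 either, or with DESeq2. The median log2 fold change of the 10 was -0.82 at day 3 and -0.81 at day 5, where the median of all tested genes was -0.00360 and 0.0211. A gene is called at a Benjamini-Hochberg adjusted p below 0.05 over all tested genes, and about as many genes were called in each direction, 50.9% in all at day 3 and 52.5% at day 5. Of these calls 48.4% and 50.1% were higher in KO cells at day 3 and day 5, and 62.1% and 64.4% with upper-quartile scaling, which moved the median of all genes by 0.13 and 0.12 (log2) and left the same 6 members called lower at each day. Every KO library lay below every control library for 8 of the 10 genes at day 3 (29.6% of tested genes) and for 5 of the 10 at day 5 (23.8%).

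**Figure D1:**
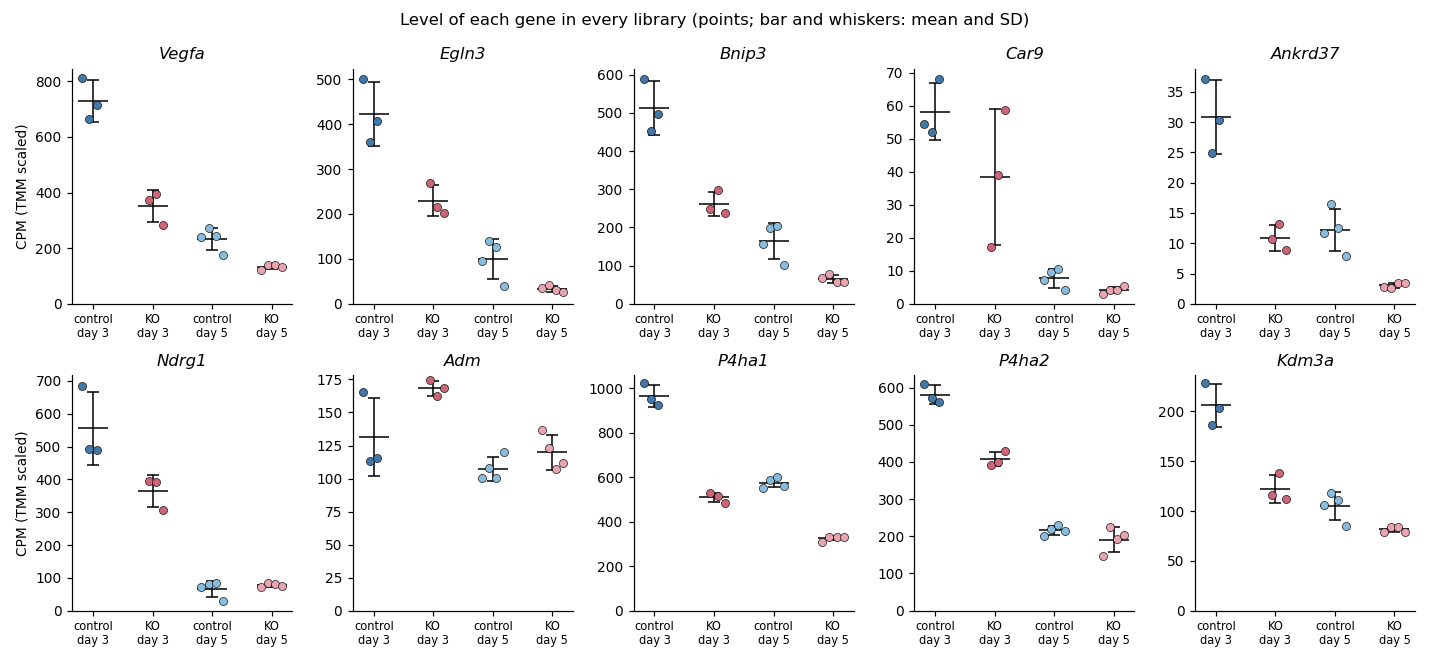
Level of each gene in CPM (vertical axes, from 0) in every library of the 4 groups (horizontal axes), with points for libraries and bars for mean and SD. Control cells at day 3 had the highest group mean for 9 of the 10 genes, Adm being the exception, and the day 5 groups lie far below the day 3 groups for Car9, Ndrg1 and Egln3.

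Summed over the 10 genes, the level was 3870 to 4701 CPM in day 3 control, 2297 to 2569 CPM in day 3 KO, 1340 to 1753 CPM in day 5 control and 975 to 1118 CPM in day 5 KO libraries. The 4 groups did not overlap on this sum, to which the abundant transcripts contribute most. Per-library values below follow replicate order, which is 1 to 3 in day 3 control, 2 to 4 in day 3 KO and 1 to 4 in both day 5 groups.

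**Figure D2:**
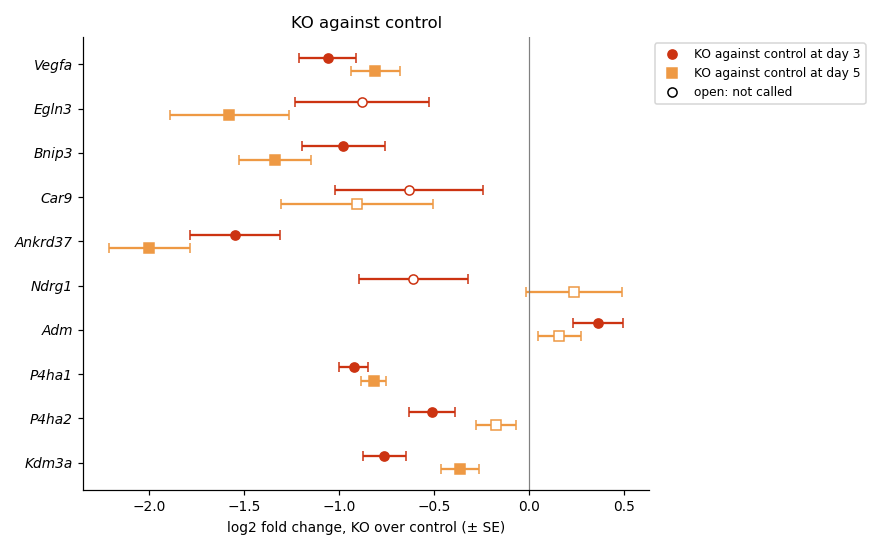
Log2 fold change of KO over control with its SE (horizontal axis) for each gene at day 3 (circles) and day 5 (squares), with open symbols for genes not called. Ankrd37 shows the most negative value at both days, at -1.55 and -2.0, and Adm lies to the right of 0 at both.

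Vegfa and Adm encode secreted signals. Vegfa (Entrez 22339, chr17:46016993-46032377), the growth factor that drives vessel sprouting, stood at 811, 663 and 714 CPM in day 3 control and at 373, 395 and 285 CPM in day 3 KO libraries. At day 5 it was at 241, 273, 243 and 176 CPM in control and 121, 141, 140 and 131 CPM in KO libraries. All KO libraries were below all controls of the same day, and every day 5 library was below every day 3 library. Vegfa was lower in KO cells by a log2 fold change of -1.06 ± 0.15 (SE, adjusted p = 5.93e-05) at day 3 and -0.81 ± 0.13 (adjusted p = 0.000151) at day 5.

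Adm (Entrez 11535, chr7:110627657-110629820), which encodes adrenomedullin, a vasodilator peptide, went the other way. It stood at 165, 113 and 115 CPM in day 3 control and 174, 162 and 168 CPM in day 3 KO libraries, then at 101, 108, 101 and 120 CPM in day 5 control and 137, 123, 107 and 112 CPM in day 5 KO libraries. The groups of each day overlap, since control replicate 1 of day 3 (165 CPM) lies within the KO values. Adm was called higher in KO cells at day 3 (log2 fold change 0.36 ± 0.13, adjusted p = 0.0328) and had a value of 0.16 at day 5 (adjusted p = 0.25), which was 0.09 without KO replicate 1 of day 5 and 0.28 with upper-quartile scaling (adjusted p = 0.0438). The day 3 call was lost on leaving out KO replicate 2 (adjusted p = 0.0860), KO replicate 3 (0.0505), KO replicate 4 (0.0661), control replicate 2 (0.145) or control replicate 3 (0.135), or with sex as a covariate (0.0771), and the fold change was 0.56 without control replicate 1.

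Egln3 (Entrez 112407, chr12:54178981-54203874) encodes PHD3, a prolyl hydroxylase that is itself a HIF target and acts back on the HIF alpha subunits. Its day 3 levels were 500, 361 and 406 CPM in control and 269, 216 and 203 CPM in KO libraries, without overlap. Its day 5 levels were 95.7, 140, 126 and 39.2 CPM in control and 35.2, 41.5, 30.7 and 26.6 CPM in KO libraries, where control replicate 4 lies inside the KO range. The KO difference at day 3, -0.88 ± 0.35 on the log2 scale, missed the threshold (adjusted p = 0.0542), and was called by DESeq2 (0.0175), with only the compared groups in the fit (0.000735) and without the day 5 control of embryo 219-e6-I and the shallow KO library together (0.00642). With sex as a covariate it was -0.36 (adjusted p = 0.345). At day 5 Egln3 was lower in KO cells, with a log2 fold change of -1.58 ± 0.31 (adjusted p = 0.00133).

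Bnip3 (Entrez 12176, chr7:138890836-138909506) encodes a mitochondrial outer-membrane protein that marks mitochondria for autophagy. Its promoter stretch above holds 5 core matches, of which the 2 ACGTG are the same palindrome. It stood at 589, 452 and 498 CPM in day 3 control, 249, 298 and 239 CPM in day 3 KO, 157, 199, 203 and 102 CPM in day 5 control and 68.0, 78.2, 57.5 and 57.8 CPM in day 5 KO libraries. The 2 genotypes did not overlap at either day. Bnip3 was lower in KO cells by -0.98 ± 0.22 (log2, adjusted p = 0.00239) at day 3 and -1.34 ± 0.19 (adjusted p = 8.68e-05) at day 5. Exons of the antisense gene Gm45507 cover 22.3% of its exon bases, and the strand setting of the counting is not given in the sources used here.

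Car9 (Entrez 230099, chr4:43507026-43513729), a cell-surface carbonic anhydrase that helps hypoxic cells export acid, was a low transcript with a wide spread. It stood at 54.3, 52.0 and 67.9 CPM in day 3 control and at 17.3, 39.0 and 58.7 CPM in day 3 KO libraries, and KO replicate 4 lies inside the control range. At day 5 it was at 7.08, 9.50, 10.4 and 4.07 CPM in control and 2.90, 4.12, 4.21 and 5.26 CPM in KO libraries, again overlapping through control replicate 4. The KO difference was not called at day 3 (-0.63 ± 0.39, adjusted p = 0.197) or day 5 (-0.91 ± 0.40, adjusted p = 0.0750). It was called at day 3 without KO replicate 4 (-1.22, adjusted p = 0.0251) and at day 5 without control replicate 4 (-1.13, adjusted p = 0.0410), with DESeq2 (0.0162) and with only the compared groups in the fit (0.0288). At day 3 the log2 difference without KO replicate 2 was -0.21. Antisense Gm12454 overlaps 9.29% of its exon bases.

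P4ha1 (Entrez 18451, chr10:59323197-59373304) and P4ha2 (Entrez 18452, chr11:54100924-54131668) encode alpha subunits of the prolyl 4-hydroxylase that stabilises the collagen triple helix. Both were called at day 3, and P4ha1 alone at day 5. P4ha1 stood at 1023, 954 and 923 CPM in day 3 control, 527, 516 and 486 CPM in day 3 KO, 554, 588, 600 and 562 CPM in day 5 control and 311, 334, 333 and 331 CPM in day 5 KO libraries. Neither genotypes nor days overlapped, and the spread within groups was small, 3.34% to 5.26% of the mean. P4ha1 was lower in KO cells by -0.92 ± 0.08 (log2, adjusted p = 5.64e-07) at day 3 and -0.82 ± 0.07 (adjusted p = 3.69e-07) at day 5.
P4ha2 stood at 609, 571 and 561 CPM in day 3 control and 393, 401 and 428 CPM in day 3 KO libraries, and at 200, 220, 230 and 213 CPM in day 5 control and 146, 225, 191 and 202 CPM in day 5 KO libraries. The genotypes were apart at day 3 and overlapped at day 5. P4ha2 was lower in KO cells at day 3 (-0.51 ± 0.12, adjusted p = 0.00282), while its value at day 5 was -0.17 ± 0.10 (adjusted p = 0.172, and 0.0480 with a value of -0.26 without KO replicate 2). It was -0.06 without KO replicate 1 and with upper-quartile scaling.

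Kdm3a (Entrez 104263, chr6:71588970-71632990) encodes a demethylase of histone H3 lysine 9. It stood at 229, 186 and 203 CPM in day 3 control, 116, 139 and 112 CPM in day 3 KO, 106, 118, 111 and 85.5 CPM in day 5 control and 78.8, 84.5, 84.1 and 79.4 CPM in day 5 KO libraries. The genotypes did not overlap at either day, although the lowest day 5 control (85.5 CPM) and the highest day 5 KO library (84.5 CPM) nearly met. Kdm3a was lower in KO cells by -0.76 ± 0.11 (log2, adjusted p = 9.12e-05) at day 3 and -0.36 ± 0.10 (adjusted p = 0.00639) at day 5.

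Ankrd37 (Entrez 654824, chr8:45996908-46000414), a small ankyrin-repeat protein, had the largest KO difference of the 10 at both days. It stood at 37.1, 24.9 and 30.3 CPM in day 3 control and 10.8, 13.2 and 8.86 CPM in day 3 KO libraries, then at 11.6, 16.4, 12.5 and 7.93 CPM in day 5 control and 2.73, 2.63, 3.45 and 3.38 CPM in day 5 KO libraries. The genotypes did not overlap at either day. KO means were 35.5% and 25.1% of control means at day 3 and day 5, and the fitted log2 fold changes were -1.55 ± 0.23 (adjusted p = 0.000101) and -2.0 ± 0.21 (adjusted p = 4.20e-06). Opposite-strand exons of Lrp2bp cover 22.7% and of Ufsp2 3.70% of its exon bases, which bears on a gene with so few counts.

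Ndrg1 (Entrez 17988, chr15:66929318-66969641), a cytoplasmic stress-responsive protein linked to differentiation, showed no called genotype difference. It stood at 684, 493 and 488 CPM in day 3 control and 395, 391 and 308 CPM in day 3 KO libraries, without overlap, and at 71.4, 81.9, 83.9 and 30.1 CPM in day 5 control and 72.9, 84.5, 81.5 and 75.4 CPM in day 5 KO libraries. At day 5 the KO libraries (72.9 to 84.5 CPM) spanned nearly the same range as control replicates 1 to 3 (71.4 to 83.9 CPM), and control replicate 4 was far below both. The KO difference was -0.61 ± 0.29 at day 3 (adjusted p = 0.0932) and 0.24 ± 0.25 at day 5 (adjusted p = 0.446). At day 3 it was called with only the compared groups in the fit (adjusted p = 0.0103) and was -0.25 with sex as a covariate (adjusted p = 0.495). At day 5 the value was -0.00684 without control replicate 4, 0.36 without control replicate 2 or with upper-quartile scaling, and 0.58 with sex in the model (adjusted p = 0.0773). Exons of Gm17035 and Gm2895 on the other strand cover 6.35% and 2.08% of its exon bases.

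Control replicate 4 of day 5 was below the other 3 day 5 controls for 7 of the 10 genes, against 36.3% of all tested genes, above them for Adm and within them for P4ha1 and P4ha2. It is the control library whose cartilage markers reach the KO range. Without it and the shallow KO library, 8 of 10 genes were called lower in KO cells at day 3, with Egln3 and Ndrg1 added (adjusted p = 0.00642 and 0.00273), and 7 of 10 at day 5, with Car9 added (0.0343). More genes were then called in all, in either direction, 7678 at day 3 and 8537 at day 5, against 7288 and 7519 with all libraries.

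Whether the KO difference itself changed between the days was tested as an interaction. It was called for 0 of the 10 genes, against 14.3% of all tested genes, with edgeR and with DESeq2, and 2 genes (Ndrg1 and Kdm3a) had an unadjusted p below 0.05. The interaction was 0.85 ± 0.38 for Ndrg1 (adjusted p = 0.161), 0.40 ± 0.15 for Kdm3a (adjusted p = 0.0903), 0.34 ± 0.16 for P4ha2 (adjusted p = 0.173) and -0.70 ± 0.47 for Egln3 (adjusted p = 0.351), on the log2 scale. With the embryo as a replicate block, which uses embryos sampled at both days, the value for Egln3 was -0.85 and was called (adjusted p = 0.0243). Without control replicate 4 of day 5 the interaction was called for Egln3 (-0.97, adjusted p = 0.0197) and Ndrg1 (0.60, adjusted p = 0.0295), and without KO replicate 1 of day 5 for P4ha2 (0.45, adjusted p = 0.0238).

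For 6 of the 10 genes (all but Ankrd37, P4ha1, Kdm3a and Adm) the log2 difference between days, in either genotype, was farther from 0 than the genotype difference at either day. In control cells, 9 of 10 fell from day 3 to day 5, against 19.9% of tested genes, with a median log2 change of -1.53 over the 10 and -0.00209 over all tested genes. In KO cells 10 of 10 fell, against 7.06% of tested genes, with a median of -1.59 against 0.0111. Every day 5 library lay below every day 3 library for those 9 genes in control cells (22.4% of tested genes) and for all 10 in KO cells (13.4%). Both genotype comparisons share libraries with these day comparisons, so the 4 sets of values are not independent of each other.

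Ndrg1 had the largest change of the 10 in control cells, -3.06 ± 0.28 on the log2 scale (adjusted p = 5.19e-06), which left 12.04% of its day 3 mean. Car9 had the largest in KO cells, -3.21 ± 0.40 (adjusted p = 0.000420), to 10.8% of its day 3 mean, and changed by -2.93 ± 0.39 in control cells (adjusted p = 9.75e-05). Ndrg1 and Car9 thus kept the smallest shares of their day 3 means in control cells, and Car9 and Egln3 (14.6%) in KO cells. The log2 change of Egln3 was -2.08 ± 0.33 in control (adjusted p = 0.000394) and -2.78 ± 0.34 in KO cells (adjusted p = 0.000346). That of Vegfa was -1.64 ± 0.14 in control and -1.39 ± 0.14 in KO cells, and that of Bnip3 -1.64 ± 0.20 and -2.0 ± 0.20. The collagen hydroxylase subunits differed in size, with P4ha2 at -1.43 ± 0.11 in control and -1.09 ± 0.11 in KO cells and P4ha1 at -0.75 ± 0.07 and -0.64 ± 0.07. Kdm3a changed by -0.97 ± 0.10 and -0.57 ± 0.11, and Ankrd37 by -1.33 ± 0.20 and -1.79 ± 0.23.

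Adm again stood apart, with a log2 difference between days of -0.29 ± 0.12 in control cells (adjusted p = 0.0774) and -0.49 ± 0.12 in KO cells, where it passed the test (adjusted p = 0.0175). It no longer passed in KO cells on leaving out KO replicate 2 (adjusted p = 0.0541) or 4 (0.0542) of day 3, or KO replicate 3 (0.0569) or 4 (0.0529) of day 5. In control cells it passed on leaving out control replicate 2 of day 3 (0.0402) or control replicate 4 of day 5 (0.0414), and its value was -0.09 without control replicate 1 of day 3.

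Of the embryos, 5 gave libraries at both days, 3 KO and 2 control. In each of the 5, all 10 genes were lower at day 5 than at day 3, which makes 50 of 50 values, whereas 15% of all tested genes were lower at day 5 in all 5 embryos. For Vegfa the day 5 level was 37.7%, 35.5% and 46.1% of the day 3 level in KO embryos 136-e2-II, 153-e3 and 153-e5, and 32.7% and 34.0% in control embryos 218-e1 (mean of its day 3 libraries) and 218-e6. For Egln3 it was 15.4%, 14.2% and 13.1% in the KO embryos and 22.2% and 31.0% in the control embryos. The KO embryos thus kept a smaller share of Egln3 than the control embryos, and a larger share of Vegfa. In the fit above with the embryo as a replicate block, this difference was called for Egln3 and not for Vegfa. In the main fit it was called for neither, and the embryos are few.

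**Figure D3:**
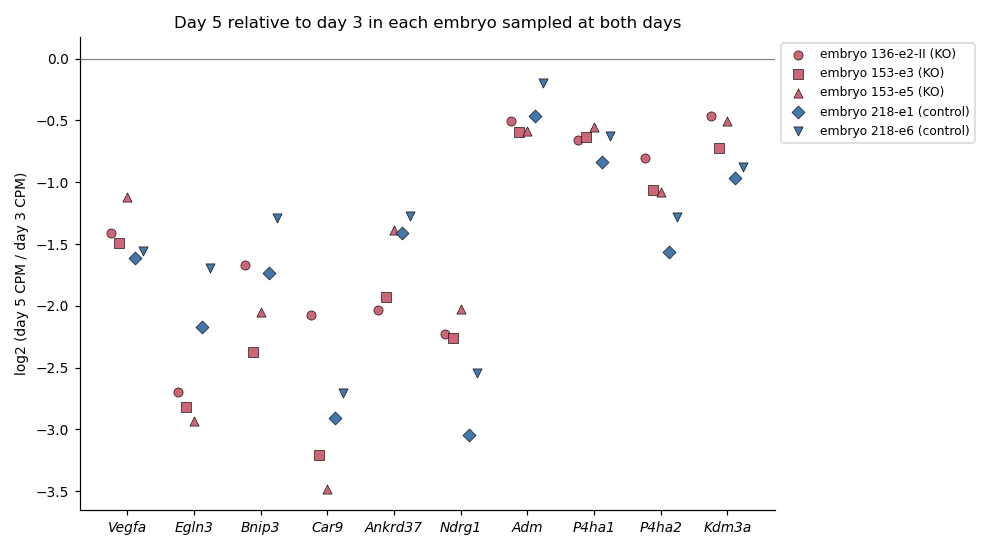
Log2 ratio of day 5 to day 3 CPM (vertical axis) for each gene (horizontal axis) in the 5 embryos sampled at both days, coloured by genotype. All 50 points lie below 0, with Adm nearest to it.

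Set side by side, day 3 KO cells were still above day 5 control cells for most of the genes. All day 3 KO libraries lay above all day 5 control libraries for 7 of the 10 genes (20.8% of tested genes) and below them for 1, P4ha1 (22% of tested genes). Ankrd37 and Kdm3a overlapped between these groups. For P4ha1, then, KO cells of day 3 at 486 to 527 CPM were already under the day 5 controls at 554 to 600 CPM. Vegfa, by contrast, was at 285 to 395 CPM in day 3 KO and 176 to 273 CPM in day 5 control libraries.

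**Figure D4:**
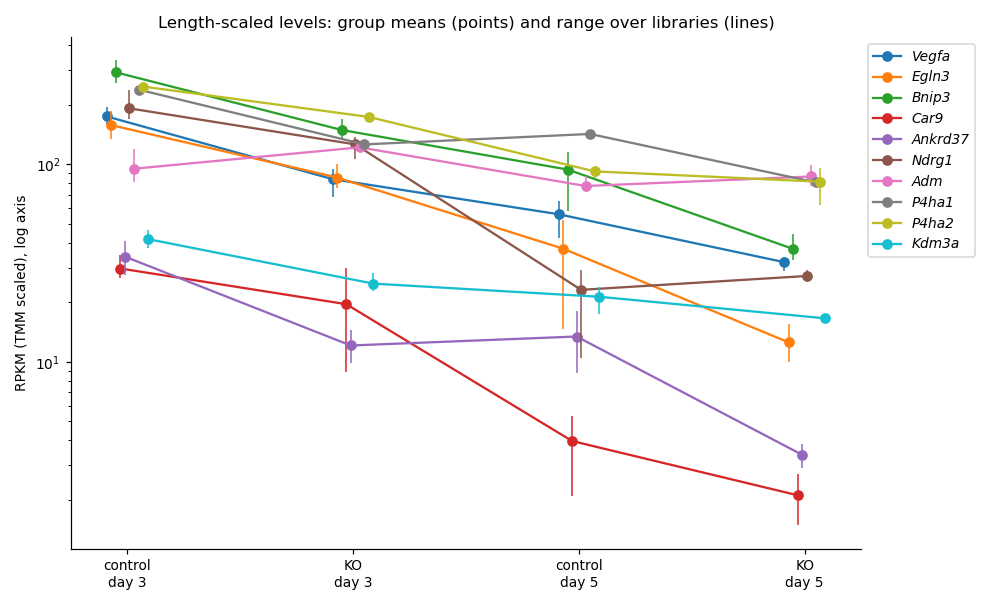
Group mean (points) and range over libraries (vertical lines) of each gene in RPKM on a log axis, for the 4 groups on the horizontal axis. Adm stays within 77.6 to 122 RPKM across group means while Car9 runs from 29.7 to 2.11 RPKM, so the order of the genes changes between groups.

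Levels of different genes were compared per length, as RPKM (the CPM divided by gene length in kilobases). In day 3 controls Bnip3 led at 292 ± 39.8 RPKM (SD, n = 3), followed by P4ha2 (248 RPKM), P4ha1 (239 RPKM), Ndrg1 (192 RPKM), Vegfa (175 RPKM) and Egln3 (158 RPKM), each overlapping its neighbour in the order. Adm followed at 95.0 RPKM, apart from both neighbours, and Kdm3a (41.8 RPKM), Ankrd37 (34.1 RPKM) and Car9 (29.7 RPKM) closed the order with overlapping ranges. In day 5 KO cells Adm led at 86.8 ± 9.47 RPKM (SD, n = 4), overlapping P4ha2 (81.6 RPKM), which overlapped P4ha1 (80.9 RPKM). Bnip3 (37.2 RPKM), Vegfa (31.9 RPKM) and Ndrg1 (27.2 RPKM) came next, each overlapping its neighbour. Kdm3a (16.6 RPKM), Egln3 (12.5 RPKM), Ankrd37 (3.37 RPKM) and Car9 (2.11 RPKM) were each separated from the next. From day 3 control to day 5 KO, the ratio of mean levels ranged from 1.09 for Adm to 14.1 for Car9, with 12.6 for Egln3, 10.1 for Ankrd37, 7.85 for Bnip3, 7.06 for Ndrg1, 5.47 for Vegfa, 3.04 for P4ha2, 2.95 for P4ha1 and 2.52 for Kdm3a.

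Across the 14 libraries the genes moved together, as a description of libraries that share groups. All 45 pairs of the 10 genes had a positive Pearson r of log2 CPM, with a median of 0.90, a minimum of 0.07 (P4ha1 with Adm) and a maximum of 0.99 (Egln3 with Bnip3). With group means removed, 38 of the 45 were positive, with a median of 0.44, and Egln3 with Bnip3 was at 0.92. Day 5 control replicate 4, below the other 3 day 5 controls for 7 of the 10 genes including Egln3 and Bnip3, enters these values. How far they rest on that 1 library was not tested. The closest gene outside the 10 was Atf4 for Vegfa (r = 0.988), Pfkfb3 for Egln3 (0.998), Mthfd1l for Bnip3 (0.993), Higd1a for Car9 (0.974), Gys1 for Ankrd37 (0.981), Slc2a3 for Ndrg1 (0.972), Aldh1l2 for P4ha1 (0.996), Slc1a4 for P4ha2 (0.986) and Rsbn1 for Kdm3a (0.983). For Adm it was Rundc3b, at a lower 0.899.

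The regulators of the pathway were called in both directions. Of 20 genes of oxygen sensing and HIF regulation, 6 were called lower and 4 higher in KO cells at day 3 (median log2 fold change -0.15), and 8 lower and 2 higher at day 5 (median -0.21). Over all tested genes 26.2% were lower and 24.6% higher at day 3, and 26.2% lower and 26.3% higher at day 5, so at day 3 the list's shares are near those of all genes. Epas1, which encodes HIF-2 alpha, stood at 11.5, 7.94 and 9.05 CPM in day 3 control and 44.3, 42.3 and 62.5 CPM in day 3 KO libraries. Hif1a, which encodes HIF-1 alpha, stood at 261, 216 and 253 CPM in day 3 control and 590, 787 and 759 CPM in day 3 KO libraries. Both were thus higher in every day 3 KO library than in any day 3 control, by 2.41 ± 0.23 (log2, adjusted p = 2.86e-06) for Epas1 and 1.55 ± 0.21 (adjusted p = 6.62e-05) for Hif1a, at the day when 6 of the 10 targets were lower. At day 5 Hif1a was not called (-0.13, adjusted p = 0.563), at 319 to 482 CPM in control and 292 to 524 CPM in KO libraries, and Epas1 was higher by 0.65 (adjusted p = 0.00884). The change of the KO difference between days was called for both, at -1.68 for Hif1a (adjusted p = 0.00205) and -1.76 for Epas1 (adjusted p = 0.00190). These are transcripts, and HIF alpha subunits are controlled largely as proteins, which were not measured.

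Egln2, a prolyl hydroxylase related to Egln3, was lower in KO cells at day 3 (-0.70) and day 5 (-0.52), as was Siah2, a ubiquitin ligase that targets prolyl hydroxylases (-0.76 and -0.50). Hif1an, the asparagine hydroxylase that limits HIF activity, was higher at day 3 (0.51) and day 5 (0.66, adjusted p = 6.36e-06). The other gene called at day 5 by the rule for naming was Elob, a subunit of the von Hippel-Lindau ligase, at 49.4 to 61.1 CPM in control and 39.8 to 43.9 CPM in KO libraries.

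Other HIF targets outside glycolysis were mixed. Of 40 such genes, 15 were called lower and 8 higher at day 3, with a median log2 fold change of -0.19, and 17 lower and 7 higher at day 5, with a median of -0.13. Over all tested genes 26.2% were called lower and 24.6% higher at day 3, and 26.2% and 26.3% at day 5. Ero1a, the oxidase that forms disulphide bonds in the endoplasmic reticulum, had a mean of 2186 CPM in day 3 control and 723 CPM in day 3 KO cells (-1.60 ± 0.16, adjusted p = 3.34e-06). Kdm6b, a demethylase of histone H3 lysine 27 (-0.88), Mxi1, a Myc antagonist (-1.02), and Hmox1, the haem-degrading enzyme (-0.89), were also lower at day 3. At day 5 the smallest adjusted p values were those of Gys1, muscle-type glycogen synthase (-1.81 ± 0.15, adjusted p = 6.44e-07), Narf (-1.11), Hmox1 (-0.91) and Fam162a, a mitochondrial protein (-1.47). Among the genes called higher, Ppp1r3c (1.83) and Loxl2 (0.62) had the smallest adjusted p values at day 3, and Dusp1 (1.68) and Igfbp3 (1.77) at day 5. These genes called higher were named after their values were seen. Of 20 glycolytic targets, 15 were called lower and 5 not called at day 3 (median -0.88), and 18 and 2 at day 5 (median -1.10), as for Gpi1 at -1.13 and -1.16 and Tpi1 at -0.94 and -1.59. From day 3 to day 5, the 40 other targets had a median change of -0.67 in control and -0.65 in KO cells, and the 20 glycolytic targets had -0.94 and -1.26. Of the 40, 24 were called lower in each genotype, against 19.9% of tested genes in control and 7.06% in KO cells.

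**Figure D5:**
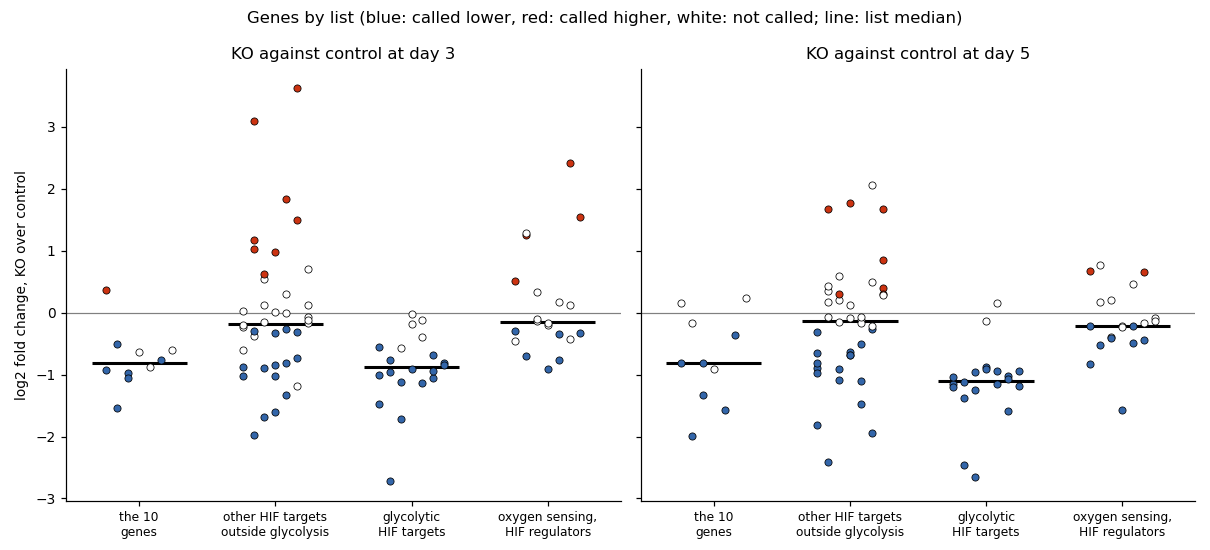
Log2 fold change of KO over control (vertical axis) for single genes (points) of 4 lists (horizontal axis) at day 3 and day 5, coloured by call, with a line at each list's median. The medians of the 10 genes (-0.82 and -0.81) lie near those of the glycolytic targets (-0.88 and -1.10), and the other targets outside glycolysis spread on both sides of 0.

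Among 26 tested paralogs, receptors and partners of the 10 genes, 11 were called lower and 7 higher at day 3 (26.2% and 24.6% of all tested genes). At day 5, 13 were called lower and 6 higher (26.2% and 26.3%). Vegfb, a relative of Vegfa, was lower in KO cells (-1.59 at day 3 and -1.18 at day 5 on the log2 scale), at 75.5, 99.1 and 82.2 CPM in day 3 control and 29.7, 22.5 and 30.4 CPM in day 3 KO libraries. Nrp1, a co-receptor for Vegfa, was higher at day 3 (1.13, adjusted p = 8.12e-06) and not called at day 5 (-0.09, adjusted p = 0.498). P4ha3, the third alpha subunit beside P4ha1 and P4ha2, was higher in KO cells, by 1.97 ± 0.17 at day 3 (adjusted p = 1.35e-06) and 0.84 at day 5. It stood at 26.9, 19.2 and 23.5 CPM in day 3 control and 84.3, 88.3 and 98.4 CPM in day 3 KO libraries, so the 3 subunits did not change in 1 direction. P3h2 and P3h1, collagen prolyl 3-hydroxylases, were lower, P3h2 with a log2 fold change of -2.81 at day 3 and P3h1 with -0.83 at day 5, whereas P3h3 of the same family, named after its values were seen, was higher at day 3 (0.63, adjusted p = 0.00187) and day 5 (0.40, adjusted p = 0.0124). Ndrg2, a relative of Ndrg1, was lower at day 5 (-1.67 ± 0.14, adjusted p = 5.01e-07), when Ndrg1 itself was not called. Adm2, a relative of Adm, was lower at day 5 (-2.74) at low levels, 2.98 to 7.89 CPM in control and 0.665 to 1.19 CPM in KO libraries. Other relatives, named after their values were seen, went both ways. Ndrg3 was higher at day 3 (0.72, adjusted p = 0.000398) and day 5 (0.66, adjusted p = 0.000193), and Ndrg4 was lower at day 5 (-0.77). Vegfd was higher at day 3 (2.11, adjusted p = 0.000104) and not called at day 5, and Vegfc was lower at day 3 (-1.12).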

How the data were processed

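The authors deposited 1 table per library with the count of reads or fragments per gene as whole numbers without normalization, and the gene's length, per the file headers. Reads were assigned to genes of mm10 with featureCounts, per the submitters' processing notes. No source used here gives the aligner, annotation release or strand setting. Lines without a gene identifier (909 of 27179 per file, 0.194% to 0.315% of counts) and 112 identifiers (chromosome Y genes, Xist and Tsix) were left out. Other genes of the X chromosome were kept. CPM and RPKM use totals scaled by the TMM method. Differences were tested by the quasi-likelihood method of edgeR 4.0.16 under R 4.3.3, with limma 3.58.1 (filterByExpr, robust), in 1 fit of all 14 libraries with a mean per group, adjusted by Benjamini-Hochberg over 14327 genes. SE is the fold change divided by the root of F. DESeq2 1.42.0 was an alternative, beside other scalings, no filter, blocks, sex and each library left out.

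The members and lists were chosen with earlier results of these data known. From each list, up to 4 called genes with the smallest adjusted p per genotype comparison qualified for naming. Hif1a, Epas1 and members of lists are also given at the day when the rule did not select them. From the glycolytic genes that qualified, Gpi1 and Tpi1 were chosen after their values were seen. Aldoc and Slc16a3 also qualified and had larger differences, with log2 fold changes of -2.72 and -1.72 at day 3 and -2.45 and -2.65 at day 5. The gene most like each member has the highest Pearson r of log2 CPM (prior count 2). Exon overlaps come from GENCODE, positions and promoter windows from RefSeq (GRCm38.p6). The test was checked on simulated counts of independent libraries with few genes changed. That check does not cover shared embryos or litters, or as many changed genes as were called here. All pairs of libraries of 1 group differed beyond sampling noise (chi-square divided by its degrees of freedom, 3.19 to 76.6). The labels do not say that cultures of 1 embryo were separate, so p values measure the spread between libraries. Embryo identifiers pair the days: once group means were removed, r was -0.02, -0.02 and 0.20 for the KO pairs and 0.02 and -0.02 for the control pairs. Single permutation tests of 3 against 3 libraries cannot go below an exact p of 0.1, and of 3 or 4 against 4 not below 0.0286.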

Additional observations from a re-analysis of the deposited data

Results flagged for a closer look

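Of 20 groups of 4 libraries examined (the 10 genes in both day 5 groups), 1 held a library far from the rest. P4ha1 in day 5 KO cells stood at 311 CPM in replicate 1 (embryo 159-e1, sampled at day 5 only) and at 331 to 334 CPM in the other 3 libraries, a gap of 0.897 of the group's range where the 95% limit for 4 values is 0.829. Chance gives about 1 such case in 20 groups. The group remained below every day 5 control library, of which the lowest stood at 554 CPM.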

How the results depend on the processing

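Over the alternatives tried for the 10 genes, 836 values had the same direction and side of the threshold as reported, 21 passed it only under the alternative, 10 no longer passed and 3 changed sign. The KO difference of Ndrg1 at day 5 was -0.00684 (without control replicate 4) to 0.36 on leaving out single libraries and -0.00416 without both doubted libraries (that control and the shallow KO library of day 3, chosen after seeing the data), and the change of the Car9 difference between days was -0.70 to 0.31 (without KO replicate 4 of day 3) on leaving out single libraries. The cause was not tested. At day 3, 0 genes were called higher with sex as a covariate, and 0 to 1 on leaving out single libraries. At day 5, 1 was called higher with upper-quartile scaling (Adm, 0.28, adjusted p = 0.0438). The change between days was called lower for 1 gene (Egln3) with the embryo as a replicate block, for 1 without both doubted libraries, and for 0 to 1 on leaving out single libraries. It was called higher for 2 without both doubted libraries and for 0 to 1 on leaving out single libraries. Over all genes, the day comparison in KO cells called 1725 genes, and 1024 to 1605 on leaving out single libraries (1024 without KO replicate 4 of day 3, 1104 and 1107 without KO replicates 3 and 4 of day 5). The change between days called 2051 genes, 2643 without both doubted libraries, and 1275 (without control replicate 3 of day 3) to 2750 on leaving out single libraries. With the replicate number as a block, 6863 and 7873 genes were called for KO against control at day 3 and day 5, against 7288 and 7519, and the counts among the 10 genes did not change. Replicate numbers do not mark shared embryos between genotypes, where same-numbered libraries correlated at -0.17 to 0.43. The embryo block changed no other call among the 10. The fewest counts lie behind Ankrd37 and Car9, whose day 5 KO means were 3.05 and 4.12 CPM.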
